A study of Homo sapiens with 8 samples.

Results

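The 10 enzymes described here make serine and asparagine and carry one-carbon units from serine into the folate pool. They are PHGDH, PSAT1, PSPH, SHMT1, SHMT2, MTHFD1, MTHFD2, MTHFD1L, ALDH1L2 and ASNS, and they were found by their Ensembl identifiers in a table of estimated counts for 37441 genes. All 10 had a row, and all 10 were among the 18203 genes that were tested, those whose counts summed to 10 or more across the libraries.

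The 8 libraries came from 2 lung cancer lines (non-small cell type) whose growth is slowed by CPL304110, an inhibitor of fibroblast growth factor receptors (FGFR). The sensitive variants are NCI-H1581 and NCI-H1703. NCI-H1581R and NCI-H1703R are the resistant variants, grown for 4 to 6 months in CPL304110 that was raised from 50 nM to 2.5 uM in NCI-H1581R and to 5 uM in NCI-H1703R. Each of the 4 variants has 2 replicates, seeded and harvested in separate rounds, and cells were taken 24 hours after fresh medium. Whether this medium held the inhibitor is not given in the sources used here. Each resistant variant is 1 selected population per line, and the sources do not call it a clone. NCI-H1581 cells were kept in DMEM/F12 and NCI-H1703 cells in RPMI 1640, so the medium and the line cannot be told apart in any comparison between lines.

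Serine is made from the glycolytic intermediate 3-phosphoglycerate by PHGDH, PSAT1 and PSPH, acting in that order. SHMT1 in the cytosol and SHMT2 in mitochondria split serine into glycine and a one-carbon unit bound to tetrahydrofolate. MTHFD1 in the cytosol, and MTHFD2, MTHFD1L and ALDH1L2 in mitochondria, oxidise and release these units, which feed purine, thymidylate and methionine synthesis as well as NADPH. ASNS makes asparagine from aspartate and glutamine. Transcription of several of these genes is known to be raised by ATF4, the factor of the integrated stress response, which binds C/EBP-ATF response elements, and by MYC, which binds E-boxes.

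The promoter letters are shown first because ASNS, the enzyme with the lowest adjusted p in NCI-H1581R, carries the best-known element of this kind. RefSeq windows on GRCh38.p14, from 250 bases before to 50 bases after a transcript start, were found for 7 of the 10 enzymes (11 windows). PSPH, SHMT2 and ALDH1L2 were not matched. Both strands were searched for TGATGNAA, a form of the C/EBP-ATF response element, and for the E-box CACGTG, which do not overlap each other. The first was present in 3.62% of 35116 windows of all genes, and the second in 7.26%. Among the enzymes, TGATGNAA was found for ASNS, 68 bases before the start, and for MTHFD1L in 3 of its 4 windows. These 3 windows hold the same MTHFD1L site, which lies 129 or 90 bases before the start or at base 24 after it, depending on the transcript. CACGTG was found for MTHFD1, 15 bases before the start, and for MTHFD1L, in the same 3 windows. The sequences around 3 of these matches are given 5′ to 3′ on the strand of the gene, with the match in capitals. They lie at chr7:97872458-97872487 (minus strand), chr6:150866346-150866375 (plus strand) and chr14:64388326-64388355 (plus strand), and GENCODE places the MTHFD1L stretch in a coding exon and the others in an exon of at least 1 transcript.
ASNS: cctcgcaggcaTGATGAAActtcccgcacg
MTHFD1L: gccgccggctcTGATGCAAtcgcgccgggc
MTHFD1: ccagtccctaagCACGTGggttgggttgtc
These letters are a description of the sequence. Binding was not measured, and the windows of PHGDH, PSAT1, SHMT1 and MTHFD2 hold neither run of letters, which says nothing of elements written differently or lying elsewhere.

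Library totals were between 33800389 and 40031710 counts. In each of the 4 variants the replicates differed beyond counting noise. VIM, an intermediate filament gene of mesenchymal cells, was measured at 2634 to 6711 CPM. CPM are counts as a rate of the library total, scaled with TMM factors over the 8 libraries. The summed level of 6 epithelial markers was 10.0 to 78.4 CPM, so the carcinoma origin given by the labels is weakly marked. Other mesenchymal markers were low in NCI-H1581, where CDH2 was 3.53 and 2.17 CPM, FN1 0.62 and 1.42 CPM and ZEB1 1.66 and 2.30 CPM. The epithelial marker EPCAM was 15.9 and 13.1 CPM there. In NCI-H1703 CDH2 was 50.2 and 48.6 CPM, ZEB1 30.6 and 33.6 CPM and EPCAM 0.70 and 0.21 CPM. The endothelial marker CDH5 and the T cell marker CD3E had 0 counts in every library, and PTPRC, which marks leucocytes, did not exceed 0.40 CPM. CD68, a lysosomal protein that is abundant in macrophages and also made by other cells, was 96.8 and 77.2 CPM in NCI-H1581 and 18.7 and 14.7 CPM in NCI-H1581R, where it fell (log2 -2.37 ± 0.21, edgeR adjusted p = 0.000902). It was 22.4 and 20.2 CPM in NCI-H1703 and 43.1 and 55.0 CPM in NCI-H1703R, where it rose (log2 1.23 ± 0.14, edgeR adjusted p = 0.00721). KRT5, a basal keratin, was at most 0.03 CPM in every first replicate and between 1.003 and 1.17 CPM in every second replicate. It thus differed between the 2 rounds alike in all 4 variants. Some other markers also kept the same direction between the rounds in all 4 variants. KRT7 was higher in every second replicate (0.62 and 4.22 CPM in NCI-H1581, 1.61 and 4.65 CPM in NCI-H1703R). KRT8 was lower in every second replicate (2.97 and 2.02 CPM in NCI-H1581, 3.23 and 2.03 CPM in NCI-H1703R). KRT18 and KRT19 did not keep the same direction. Over 11943 genes the differences between replicates did not run alike across lines (r from -0.469 to 0.0254). The bearing of the rounds on the enzymes was not tested. Lineage genes also moved with resistance, differently in each line. FN1 was 0.62 and 1.42 CPM in NCI-H1581 and 745 and 919 CPM in NCI-H1581R, and KRT18 was 64.3 and 65.4 CPM in NCI-H1703 and 2.88 and 2.48 CPM in NCI-H1703R. Their part in the enzyme results was not tested. With bulk RNA, more RNA per cell and more expressing cells cannot be told apart.

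In NCI-H1581R, 6 of the 10 enzymes rose against NCI-H1581 and none fell. They were the 3 enzymes of serine synthesis, the mitochondrial MTHFD2 and ALDH1L2, and ASNS, with folds from 1.67 to 9.33. In NCI-H1703R, 3 of the 10 rose against NCI-H1703, namely PHGDH, PSAT1 and ASNS, with folds from 1.35 to 1.46, and none fell. Calls are those of edgeR's quasi-likelihood test, with p adjusted over all 18203 genes (Benjamini-Hochberg) and a threshold of 0.1. The replicates were not paired in these fits. Pairing them by number (the replicate block) changed no enzyme call in NCI-H1581R. In NCI-H1703R it gave 5 calls, of which 1 was lower (MTHFD1L), in a fit that called 34.9% of all genes. By the same rule 15.1% of all genes were called in NCI-H1581R (7.63% higher) and 14.7% in NCI-H1703R (7.06% higher). Of the enzymes with a negative log2 fold change, 1 had an unadjusted p under 0.05 in NCI-H1581R and 0 in NCI-H1703R. DESeq2 called 1 enzyme lower in NCI-H1581R (9.17% of all genes lower) and 0 in NCI-H1703R (8.83%). The median log2 fold change of the 10 enzymes was 0.92 in NCI-H1581R, where that of all genes was 0.04, and 0.07 in NCI-H1703R, where that of all genes was 0.

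**Figure D1:**
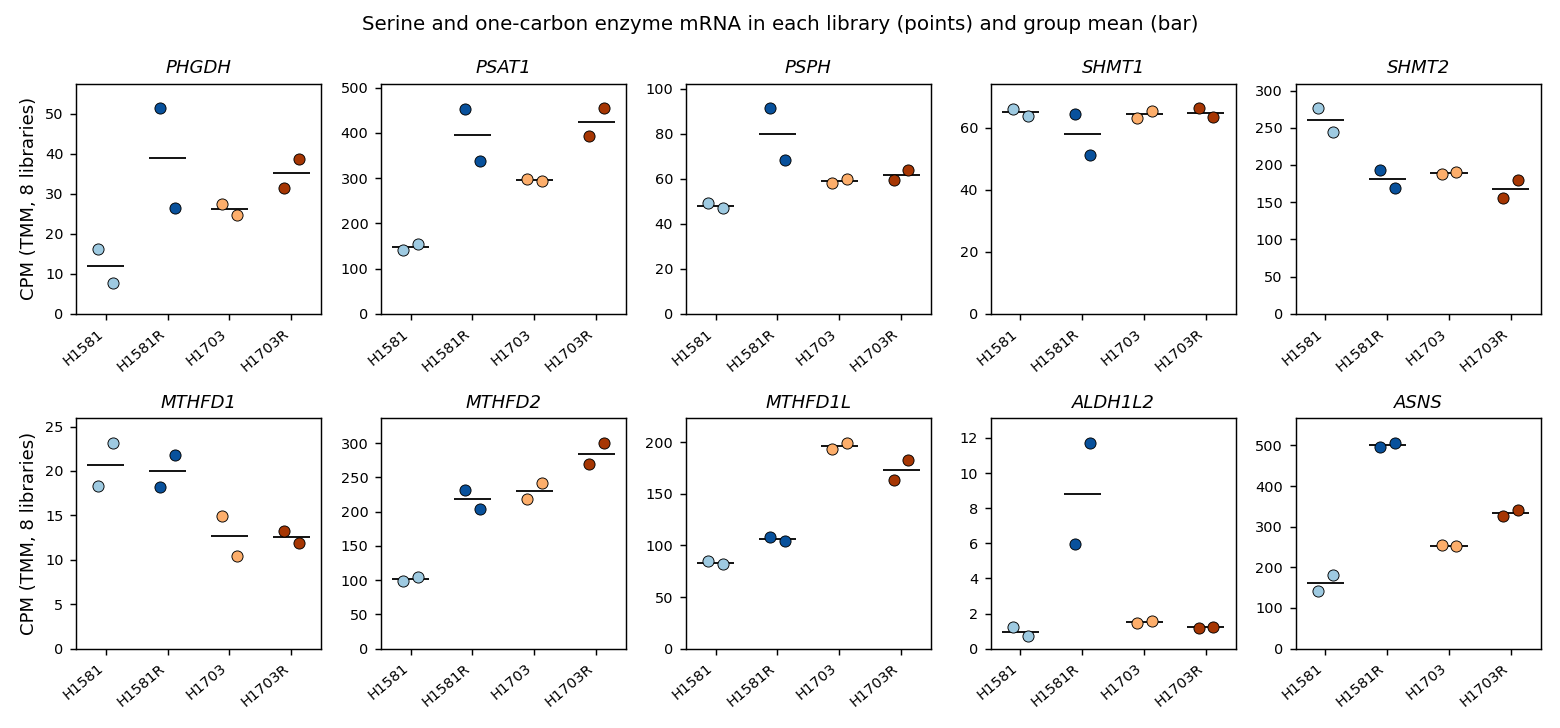
Level of each enzyme's mRNA in CPM (vertical axis, from 0, scaled separately for each gene) in the 8 libraries, with 2 points per variant for the replicates and a bar at their mean. PHGDH, PSAT1, PSPH, MTHFD2, MTHFD1L, ALDH1L2 and ASNS are higher in both NCI-H1581R replicates than in either NCI-H1581 replicate. SHMT2 is lower in both, and the changes of MTHFD1L and SHMT2 were not called. SHMT1 lies between 51.4 and 66.3 CPM throughout.

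PHGDH (chromosome 1, 119648411 to 119744218, plus strand, GRCh38) catalyses the first step of serine synthesis. It was measured at 16.1 and 7.69 CPM in NCI-H1581 and at 51.4 and 26.4 CPM in NCI-H1581R, from 308 to 1933 counts. Both resistant libraries lay above both sensitive ones, although the replicates of each variant differed widely. In both NCI-H1581 and NCI-H1581R the first replicate was the higher one. The log2 fold change was 1.73 ± 0.43 (SE, n = 2 per variant; edgeR adjusted p = 0.0535), a fold of 3.31. With the replicate block it was 1.73 ± 0.20 (edgeR adjusted p = 0.00141). The folds that follow were fitted without the block, with 1 library left out. The PHGDH fold was 5.01 without the first NCI-H1581 replicate and 2.41 without the second. It was 2.28 without the first NCI-H1581R replicate and 4.36 without the second. In NCI-H1703 PHGDH was 27.5 and 24.7 CPM, and in NCI-H1703R 31.5 and 38.8 CPM. The groups did not overlap, and the change was 0.46 ± 0.13 on the log2 scale (edgeR adjusted p = 0.0955). This call stood at the edge of the threshold, and adjusted p was 0.126 with RLE and 0.12 with upper-quartile normalisation and 0.167 without a filter on low counts. Without the second NCI-H1703R replicate the log2 fold change was 0.30 (edgeR adjusted p = 0.293).

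PSAT1 (chromosome 9, 78297125 to 78330093, plus strand), the aminotransferase of the pathway, was 141 and 155 CPM in NCI-H1581 and 453 and 338 CPM in NCI-H1581R. The rise was 2.68-fold, a log2 fold change of 1.42 ± 0.20 (SE; edgeR adjusted p = 0.00731). In NCI-H1703 it was 298 and 295 CPM, and in NCI-H1703R 393 and 455 CPM. The sensitive NCI-H1703 cells thus held a level between those of NCI-H1581 and NCI-H1581R, and the rise with resistance was 1.46-fold (log2 0.55 ± 0.10, edgeR adjusted p = 0.0325).

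PSPH (chromosome 7, 56011051 to 56051604, minus strand), the phosphatase that releases serine, was 49.3 and 46.9 CPM in NCI-H1581 and 91.4 and 68.3 CPM in NCI-H1581R. This was a rise of 1.67-fold (log2 0.74 ± 0.19, edgeR adjusted p = 0.0633). In the other line the replicates overlapped, with 58.2 and 60.1 CPM in NCI-H1703 against 59.3 and 63.9 CPM in NCI-H1703R (log2 0.09 ± 0.09, edgeR adjusted p = 0.622). The pseudogene PSPHP1, a near copy of PSPH, held at most 3.73% as many counts as PSPH in any library. Summed over the 3 enzymes of serine synthesis, the level was 207 and 210 CPM in NCI-H1581, 596 and 433 CPM in NCI-H1581R, 384 and 380 CPM in NCI-H1703 and 484 and 557 CPM in NCI-H1703R. PSAT1 made up most of each sum.

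The 2 serine hydroxymethyltransferases did not rise in either line. SHMT1 (chromosome 17, 18327860 to 18363563, minus strand), the cytosolic enzyme, was 66.1 and 63.8 CPM in NCI-H1581, 64.4 and 51.4 CPM in NCI-H1581R, 63.2 and 65.6 CPM in NCI-H1703 and 66.3 and 63.5 CPM in NCI-H1703R. The replicates overlapped in both lines, and the log2 fold changes were -0.16 ± 0.18 and 0.04 ± 0.09 (edgeR adjusted p = 0.661 and 0.848). SHMT2 (chromosome 12, 57229573 to 57234935, plus strand), the mitochondrial enzyme, was 276 and 245 CPM in NCI-H1581 and 193 and 169 CPM in NCI-H1581R. Both resistant libraries were lower, with a log2 fold change of -0.51 ± 0.17 that missed the threshold (edgeR adjusted p = 0.119). It passed with DESeq2 (adjusted p = 0.0217), with upper-quartile normalisation (0.0999), with a minimum of 10 counts in each library (0.0809) and in one fit of all 8 libraries (0.029). In NCI-H1703 SHMT2 was 188 and 190 CPM against 155 and 180 CPM in NCI-H1703R (log2 -0.14 ± 0.10, edgeR adjusted p = 0.458). SHMT1 and SHMT2 each share exon bases with a gene on the other strand (SMCR8 and NDUFA4L2), and whether strand was used in counting is not given.

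Among the enzymes that carry the one-carbon unit, the cytosolic MTHFD1 (chromosome 14, 64388031 to 64463457, plus strand) overlapped between variants in both lines. It was 18.3 and 23.1 CPM in NCI-H1581, 18.2 and 21.8 CPM in NCI-H1581R, 15.0 and 10.4 CPM in NCI-H1703 and 13.3 and 11.9 CPM in NCI-H1703R. The log2 fold changes were -0.05 ± 0.22 and 0.01 ± 0.20 (edgeR adjusted p = 0.944 and 1.0), and their signs changed between settings.

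MTHFD2 (chromosome 2, 74186172 to 74217565, plus strand), its mitochondrial counterpart for the dehydrogenase and cyclohydrolase steps, was 98.9 and 105 CPM in NCI-H1581 and 232 and 204 CPM in NCI-H1581R. The rise was 2.15-fold (log2 1.11 ± 0.17, edgeR adjusted p = 0.00878). In NCI-H1703 it was already 219 and 242 CPM, and it was 269 and 300.0 CPM in NCI-H1703R. The groups did not overlap, and the log2 fold change of 0.34 ± 0.11 was not called (edgeR adjusted p = 0.123). It was called with the replicate number as a block (adjusted p = 0.00239), with DESeq2 (0.0336) and with a minimum of 10 counts in each library (0.0656). The pseudogene MTHFD2P1 held at most 3.51% as many counts as MTHFD2, and SLC4A5 on the other strand shares some exon bases.

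MTHFD1L (chromosome 6, 150865679 to 151101887, plus strand), the mitochondrial formate-tetrahydrofolate ligase, had log2 fold changes of opposite sign in the 2 lines, and neither was called. It was 84.7 and 82.0 CPM in NCI-H1581 and 109 and 104 CPM in NCI-H1581R (log2 0.36 ± 0.15, edgeR adjusted p = 0.21). This difference was called higher in one fit of all 8 libraries (adjusted p = 0.0689) and without the first (0.099) or the second (0.0987) NCI-H1581R replicate. In NCI-H1703 it was 193 and 199 CPM, and in NCI-H1703R 163 and 183 CPM (log2 -0.15 ± 0.10, edgeR adjusted p = 0.411). With the replicate block the value in NCI-H1703R was -0.15 ± 0.06 and was called lower (adjusted p = 0.0941).

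ALDH1L2 (chromosome 12, 105019784 to 105107643, minus strand), which oxidises mitochondrial 10-formyltetrahydrofolate with formation of NADPH, was the lowest of the 10 per transcript length in every library. Its counts were 42 and 28 in NCI-H1581 and 224 and 461 in NCI-H1581R, or 1.25 and 0.70 against 5.95 and 11.7 CPM. This 9.33-fold rise was the largest among the enzymes (log2 3.22 ± 0.51, edgeR adjusted p = 0.0113), and it was called with each of the 4 libraries left out in turn, at 6.2-fold without the second NCI-H1581R replicate. In NCI-H1703 the counts were 54 and 53, and in NCI-H1703R 45 and 47. These correspond to 1.46 and 1.59 against 1.19 and 1.24 CPM, and the log2 fold change of -0.29 ± 0.35 was not called (edgeR adjusted p = 0.682). NOPCHAP1 and WASHC4 share exon bases with ALDH1L2 on the other strand.

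ASNS (chromosome 7, 97851677 to 97872542, minus strand), whose promoter letters are printed above, was 142 and 180 CPM in NCI-H1581 and 497 and 506 CPM in NCI-H1581R. The resistant replicates lay close together and well above the sensitive ones, a rise of 3.12-fold (log2 1.64 ± 0.20, edgeR adjusted p = 0.00341). In NCI-H1703 it was 254 and 252 CPM and in NCI-H1703R 327 and 340.0 CPM. This 1.35-fold rise also passed the test (log2 0.43 ± 0.09, edgeR adjusted p = 0.0373). A long non-coding gene on the same strand, not counted separately here, shares 2415 of the 4896 exon bases of ASNS.

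**Figure D2:**
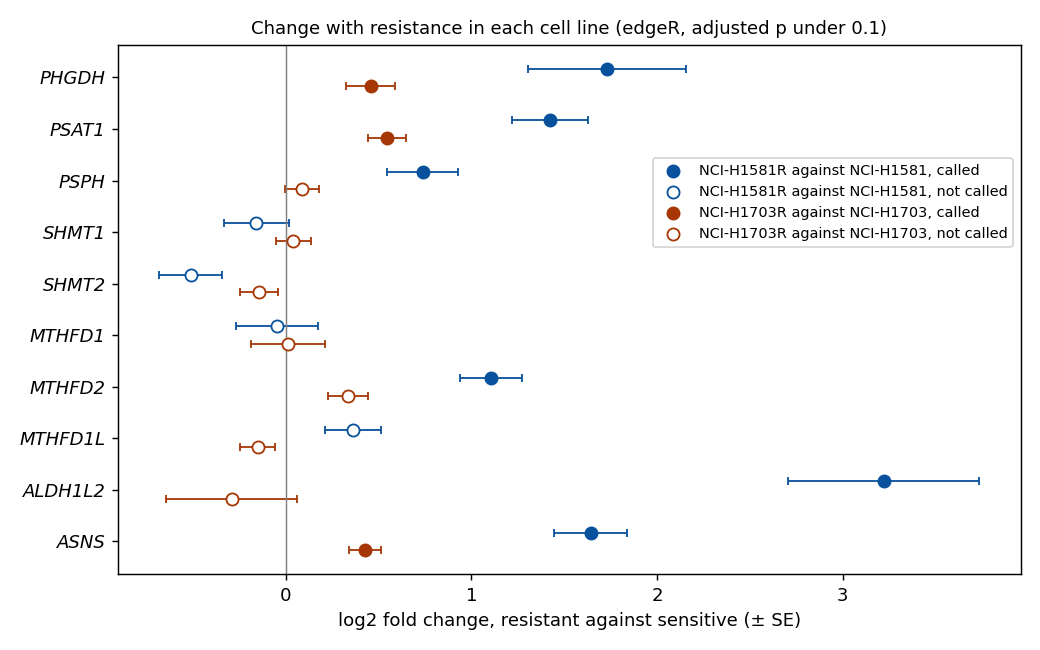
Log2 fold change of each enzyme, resistant against sensitive, with its SE (horizontal axis) in NCI-H1581R (blue) and NCI-H1703R (orange), with filled points where edgeR's adjusted p was under 0.1. The filled points reach 3.22 for ALDH1L2 in NCI-H1581R and do not exceed 0.55 in NCI-H1703R.

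Several of these calls were lost when a single library was left out, which also leaves the test fewer libraries. The calls in NCI-H1581R were kept when either NCI-H1581R replicate was left out. Without the first or the second of these, the log2 fold change was 1.21 or 1.60 for PSAT1. For SHMT2 it was -0.60 or -0.44, against -0.51 with all 4 libraries. Without the first or the second NCI-H1581 replicate, the log2 fold change in NCI-H1581R was 1.05 or 1.15 for MTHFD2, against 1.11 with all 4 libraries. It was 1.34 or 1.49 for PSAT1, against 1.42, and 2.33 or 1.27 for PHGDH, against 1.73. A variant with 1 library left was assumed to vary like the others in the fit. In NCI-H1581R 2 enzymes were called when the first NCI-H1581 replicate was left out (PHGDH and ALDH1L2, with 6.37% of all genes called) and 2 when the second was left out (ASNS and ALDH1L2, with 6.16%). In NCI-H1703R edgeR called no enzyme without the first NCI-H1703 replicate (1.61% of all genes called) or without the second (1.51%), and 3 enzymes had an unadjusted p under 0.05 in each case. It called none in one fit of all 8 libraries (9.5% of all genes). There, 3 enzymes had an unadjusted p under 0.05, and PHGDH was not among them. The edgeR adjusted p in that fit was 0.641 for PHGDH, 0.12 for PSAT1 and 0.153 for ASNS. DESeq2 on the 4 libraries called PHGDH, PSAT1, ASNS and MTHFD2. With the replicate block, 5 enzymes were called in NCI-H1703R (PHGDH, PSAT1, MTHFD2 and ASNS higher, MTHFD1L lower), in a fit that called 34.9% of all genes. The sign of each of the 9 calls was kept in every setting tried.

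**Figure D3:**
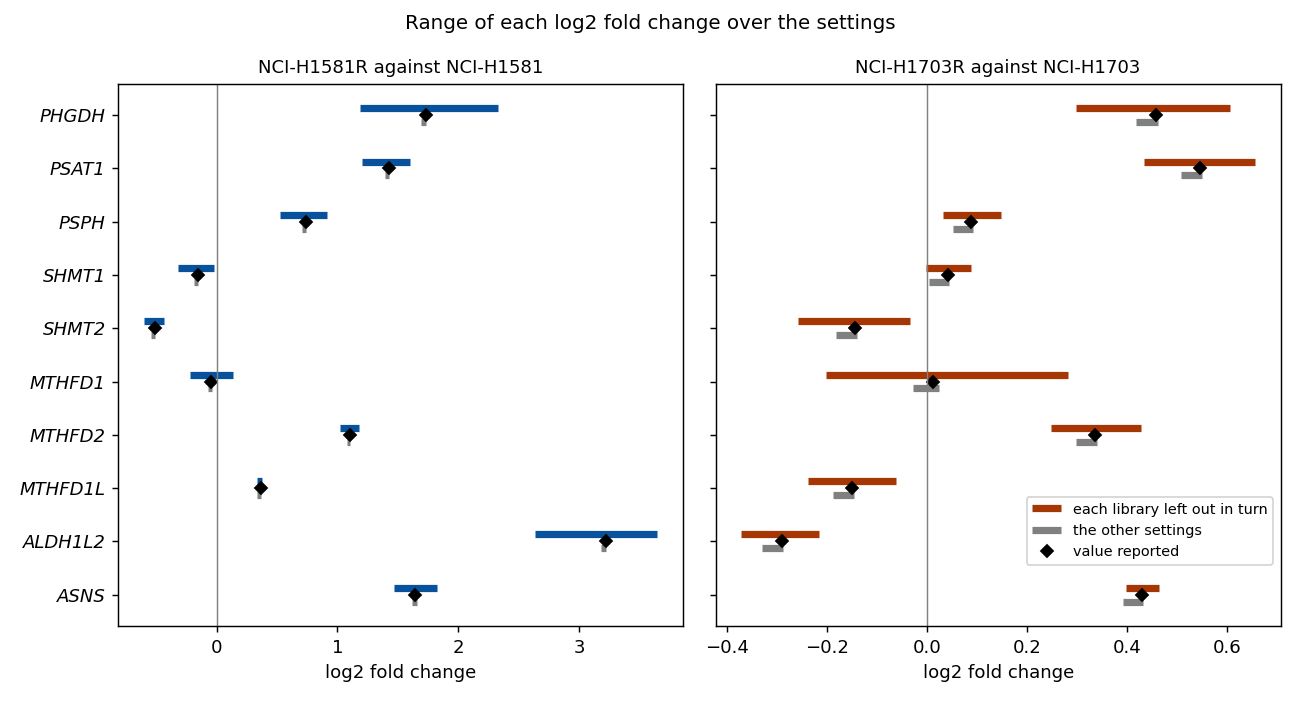
Range of each enzyme's log2 fold change (horizontal axis, different scale in each panel) with single libraries omitted (coloured bars) and over the other settings (grey bars), with the value reported as a diamond. PHGDH in NCI-H1581R ranges from 1.19 to 2.33 and ALDH1L2 from 2.63 to 3.65, and only MTHFD1 crosses 0 clearly in both lines.

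The change with resistance was compared between the lines with an interaction term over all 8 libraries, given as the change in NCI-H1703 minus that in NCI-H1581. For 6 of the 10 enzymes the change differed, and in all 6 it was lower in NCI-H1703, where 15.4% of all genes were called (8.47% lower). The difference was -3.53 ± 0.75 for ALDH1L2 (edgeR adjusted p = 0.0202) and -1.24 ± 0.19 for ASNS (edgeR adjusted p = 0.00547). It was -0.90 ± 0.23 for PSAT1 (0.0427), -0.79 ± 0.18 for MTHFD2 (0.027), -0.67 ± 0.22 for PSPH (0.0933) and -0.53 ± 0.16 for MTHFD1L (0.0749), with edgeR's adjusted p in parentheses. PHGDH showed a difference of -1.29 ± 0.53 that was not called (edgeR adjusted p = 0.184) and that was called with the replicate block within each cell line (0.0157). SHMT1, SHMT2 and MTHFD1 gave 0.18 ± 0.19, 0.35 ± 0.19 and 0.04 ± 0.30, and none was called. ALDH1L2 and ASNS were called with each of the 8 libraries left out in turn. PSPH and MTHFD1L were not called with RLE normalisation, without a filter or with a block shared by both lines. ALDH1L2 and ASNS alone were called without the second NCI-H1703 replicate (8.63% of all genes called) and without the first NCI-H1703R replicate (9.55%). Without the first NCI-H1703 replicate 3 enzymes were called (8.98% of all genes), and 3 were called without the first (10.4%) or the second (11.2%) NCI-H1581 replicate.

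The sensitive lines differed from each other before any selection. Of the 10 enzymes, 8 were called between NCI-H1703 and NCI-H1581, 6 higher and 2 lower in NCI-H1703, in a comparison that called 62.9% of all genes (32.5% higher and 30.4% lower). MTHFD1L was 2.36-fold higher in NCI-H1703 (log2 1.24 ± 0.09, edgeR adjusted p = 2.54e-05), MTHFD2 2.26-fold higher (log2 1.18 ± 0.11, edgeR adjusted p = 6.46e-05) and PSAT1 2.0-fold higher (log2 0.997 ± 0.10, edgeR adjusted p = 0.000108). PHGDH (log2 1.16 ± 0.28, edgeR adjusted p = 0.00978), ASNS (0.65 ± 0.13, 0.0045) and PSPH (0.30 ± 0.10, 0.0412) were also higher. The PHGDH value rested on the NCI-H1581 replicates, being 3.4-fold without the first and 1.62-fold without the second, and it was called in both cases. SHMT2 was lower in NCI-H1703 (log2 -0.46 ± 0.10, edgeR adjusted p = 0.00473), as was MTHFD1 (-0.71 ± 0.21, 0.0229). SHMT1 (-0.01 ± 0.10, edgeR adjusted p = 0.936) and ALDH1L2 (0.67 ± 0.46, 0.248) were not called. PSPH and MTHFD1 were not called without the second NCI-H1581 replicate or without the second NCI-H1703 replicate, and PSPH was not called in one fit of all 8 libraries (adjusted p = 0.14).

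The resistant lines share these libraries with the within-line comparisons, and the values are given side by side only. Between NCI-H1703R and NCI-H1581R, 5 of the 10 enzymes were called, 2 higher and 3 lower in NCI-H1703R, where 52.5% of all genes were called (25.9% higher and 26.7% lower). PHGDH and PSAT1 overlapped between the resistant lines, with log2 fold changes of -0.11 ± 0.34 and 0.13 ± 0.21 (edgeR adjusted p = 0.822 and 0.655). MTHFD1L remained higher in NCI-H1703R (0.74 ± 0.15, edgeR adjusted p = 0.0122), and MTHFD2 was higher at the edge of the threshold (0.42 ± 0.16, 0.0921). ALDH1L2 was lower in NCI-H1703R (-2.82 ± 0.45, edgeR adjusted p = 0.00576), and so were ASNS (-0.55 ± 0.16, 0.0411) and MTHFD1 (-0.63 ± 0.19, 0.0486). PSPH (-0.34 ± 0.19, edgeR adjusted p = 0.209), SHMT1 (0.20 ± 0.17, 0.396) and SHMT2 (-0.08 ± 0.16, 0.736) were not called. With the replicate block, ALDH1L2 and MTHFD1L alone were called (42.0% of all genes), and adjusted p was 0.194 for ASNS, 0.146 for MTHFD1 and 0.272 for MTHFD2. ALDH1L2 alone was called without the first (33.6% of all genes) or the second (35.3%) NCI-H1703R replicate.

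Levels can be compared between enzymes only per transcript length, given here as CPM per kilobase (kb) of the Ensembl canonical transcript, with the mean and SD of 2 replicates. In NCI-H1581 the highest level was that of SHMT2 (121 ± 10.3 CPM per kb), followed by ASNS (67.7 ± 11.3) and PSAT1 (67.2 ± 4.59), which overlapped. SHMT1, PSPH, MTHFD1L and MTHFD2 lay between 25.7 and 23.1 CPM per kb, and of these neighbours PSPH, MTHFD1L and MTHFD2 overlapped. MTHFD1 (6.57 ± 1.09) and PHGDH (6.39 ± 3.20) overlapped, and ALDH1L2 was last (0.13 ± 0.05). In NCI-H1581R the order began with ASNS (210 ± 2.65 CPM per kb), PSAT1 (179 ± 36.9) and SHMT2 (84.1 ± 7.80), with MTHFD2 next (49.5 ± 4.47). PSPH, MTHFD1L, SHMT1, PHGDH, MTHFD1 and ALDH1L2 followed, and among neighbours only SHMT1 and PHGDH overlapped.

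In NCI-H1703 the order was PSAT1 (134 ± 0.996 CPM per kb), ASNS (106 ± 0.78), SHMT2 (87.7 ± 0.74), MTHFD1L (56.9 ± 1.27) and MTHFD2 (52.3 ± 3.69), then PSPH, SHMT1, PHGDH, MTHFD1 and ALDH1L2. In NCI-H1703R PSAT1 (192 ± 19.9 CPM per kb), ASNS (140 ± 3.81) and SHMT2 (77.7 ± 8.18) kept these ranks, and MTHFD2 (64.6 ± 4.94) stood above MTHFD1L (50.2 ± 4.08). No neighbours overlapped in these 2 variants. With the longest coding transcript in place of the canonical one, 5 ranks changed in NCI-H1581 and none in the other 3 variants.

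**Figure D4:**
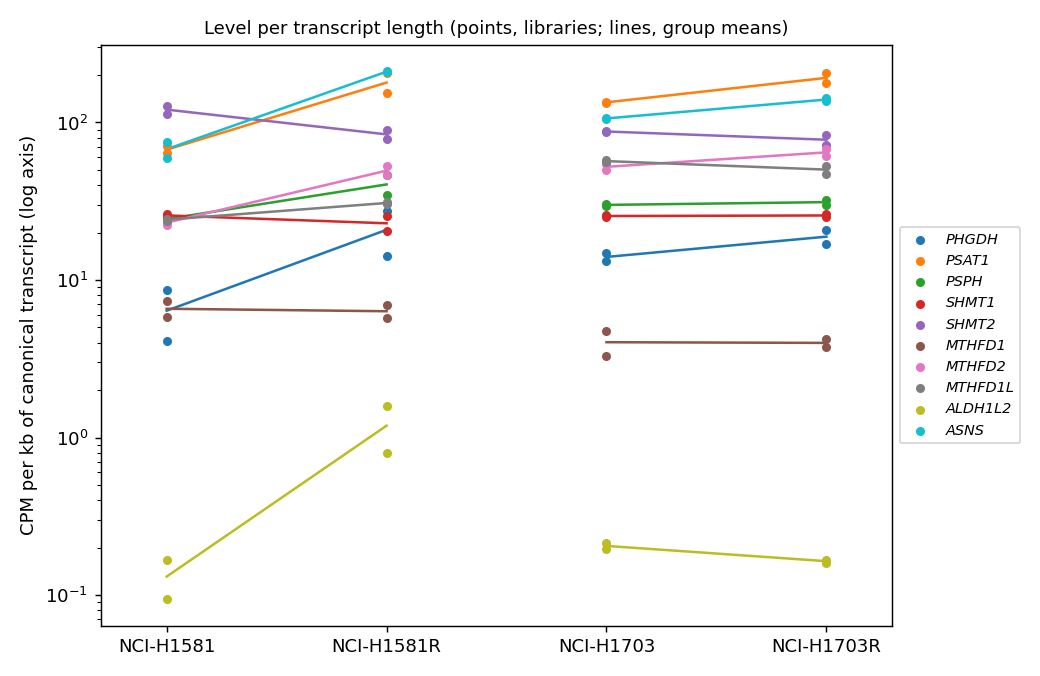
Level per transcript length in CPM per kb (vertical log axis) for the 10 enzymes in the 4 variants, with points for libraries and lines joining the means of the sensitive and resistant variant of a line. SHMT2 is highest in NCI-H1581, ASNS in NCI-H1581R and PSAT1 in NCI-H1703 and NCI-H1703R, and ALDH1L2 is lowest throughout.

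Ratios within a library show how the enzymes shifted against each other. They are given per length and without a test, since an exact permutation test of 2 against 2 libraries cannot give a two-sided p under 0.333. The ratio of mitochondrial MTHFD2 to cytosolic MTHFD1 was 3.87 and 3.24 in NCI-H1581 and 9.13 and 6.71 in NCI-H1581R. It was 10.5 and 16.6 in NCI-H1703 and 14.5 and 18.1 in NCI-H1703R, where the variants overlapped. The ratio of MTHFD2 to SHMT2, both mitochondrial, was 0.17 and 0.21 in NCI-H1581, 0.59 and 0.59 in NCI-H1581R, 0.57 and 0.62 in NCI-H1703 and 0.85 and 0.82 in NCI-H1703R. It was higher in both resistant variants than in their sensitive counterparts. The ratio of SHMT2 to SHMT1 was 4.89 and 4.49 in NCI-H1581 and 3.51 and 3.86 in NCI-H1581R, and 3.48 and 3.40 against 2.74 and 3.32 in the other line, so it was lower in both resistant variants. All 10 enzymes together summed to 894 and 909 CPM in NCI-H1581, 1715 and 1501 CPM in NCI-H1581R, 1317 and 1340.0 CPM in NCI-H1703 and 1479 and 1637 CPM in NCI-H1703R.

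The other genes of folate, glycine and methionine metabolism did not follow the 6 enzymes as a group. Of 39 listed genes 38 were tested. In NCI-H1581R 2 rose (5.26%, against 7.63% of all genes) and 6 fell (15.8%, against 7.44%), with a median log2 fold change of -0.10. CTH, which makes cysteine from cystathionine, was 4.33 and 4.64 CPM in NCI-H1581 and 12.7 and 12.8 CPM in NCI-H1581R (log2 1.51 ± 0.23, edgeR adjusted p = 0.00989). CBS, the enzyme before it, was 4.48 and 7.02 CPM against 9.80 and 19.1 CPM (log2 1.33 ± 0.40, edgeR adjusted p = 0.0958). SFXN3, of the family of mitochondrial serine carriers, fell from 45.6 and 36.2 CPM to 12.4 and 12.4 CPM (log2 -1.71 ± 0.20, edgeR adjusted p = 0.00289).

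In NCI-H1703R 3 genes of this list rose and 2 fell, with a median log2 fold change of 0.16. These 5 of 38 are 13.2%, against 14.7% of all genes, and the 13 called with the replicate block are 34.2%, against 34.9% of all genes in that fit, so that the list stood near the share of all genes in both. CBS was 149 and 128 CPM in NCI-H1703 and 231 and 212 CPM in NCI-H1703R (log2 0.71 ± 0.11, edgeR adjusted p = 0.018).

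Of 18 genes of the integrated stress response, 8 rose (44.4%, against 7.63% of all genes) and none fell in NCI-H1581R, with a median log2 fold change of 0.67. ATF4 was 203 and 221 CPM in NCI-H1581 and 481 and 537 CPM in NCI-H1581R (log2 1.27 ± 0.18, edgeR adjusted p = 0.00662). CHAC1, a glutathione-degrading enzyme and ATF4 target, was 9.76 and 9.36 CPM against 97.8 and 109 CPM (log2 3.45 ± 0.18, edgeR adjusted p = 0.000127). The largest change in the list was that of the factor ATF3 (log2 3.55 ± 0.27, edgeR adjusted p = 0.000526), and the secreted STC2 also rose (2.13 ± 0.30, 0.00725).

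In NCI-H1703R 5 of the 18 rose (27.8%, against 7.06% of all genes) and 1 fell (5.56%, against 7.67%), with a median of 0.16. With the replicate block 6 rose (33.3%, against 18.2% of all genes in that fit) and 2 fell (11.1%, against 16.7%). ATF4 was 430 and 410 CPM in NCI-H1703 and 492 and 523 CPM in NCI-H1703R, which was not called (log2 0.30 ± 0.09, edgeR adjusted p = 0.109). CHAC1 rose from 42.5 and 40.9 to 64.1 and 70.0 CPM (log2 0.72 ± 0.09, edgeR adjusted p = 0.0106), and DDIT3 rose (1.24 ± 0.16, 0.00967). ATF5 fell (-0.94 ± 0.09, edgeR adjusted p = 0.00444). The change in ATF4 differed between the lines by -0.99 ± 0.18 (edgeR adjusted p = 0.00947) and that in CHAC1 by -2.75 ± 0.18 (6.22e-05), in each case lower in NCI-H1703. These RNA values do not measure ATF4 protein, and whether they bear on the enzymes was not tested.

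Of 15 proliferation genes, 4 fell in NCI-H1581R (26.7%, against 7.44% of all genes) and none rose. In NCI-H1703R 1 fell, which at 6.67% was near the 7.67% of all genes, and 9 fell with the replicate block (60.0%, against 16.7%). The adjusted p of each of the 4 was above 0.05. The largest change in NCI-H1581R was that of RRM2, a subunit of ribonucleotide reductase (log2 -0.98 ± 0.24, edgeR adjusted p = 0.0534). The part of growth rate in the enzyme levels was not tested.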

How the data were processed

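RNA of 8 libraries (2 cell lines, 2 variants each, 2 replicates) was measured. Per the labels, cutadapt and Salmon were used with GRCh38, and the authors combined transcripts into genes by tximport. The table was deposited as whole-number estimated counts for each gene, without normalisation. Tool versions, transcript annotation, tximport scaling and strandedness are not given in the sources used here. All 8 columns were used, and library depth sets counting error only.

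From these counts, edgeR 4.0.16 (R 4.3.3; TMM, two-sided quasi-likelihood test with the newer quasi-dispersions, Benjamini-Hochberg adjustment, threshold 0.1) was run for genes with a sum of 10 or more counts, on the 4 libraries of each comparison and on all 8 for the interaction. SE is the log2 fold change divided by the root of F. DESeq2 1.42.0, other normalisations, filters and thresholds, replicate blocks, one fit of all 8 libraries and leaving out each library were alternatives, and legacy quasi-dispersions were added after seeing the data. The study itself used DESeq2 within each line.

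The labels state that the procedure was repeated for the second replicate. Deviations of same-numbered replicates correlated within a line (r = 0.196 for NCI-H1581 and 0.532 for NCI-H1703, over 11943 genes) and from -0.469 to 0.0254 across lines. The numbers were taken to pair the replicates within a line, from the labels. This pairing entered only the fits with a replicate block, and the main fits leave it out.

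Gene symbols, positions and lengths came from GENCODE v44. All 10 enzymes were named. Of each list, up to 3 called genes per line with the largest absolute change and a mean of at least 5 CPM were named, and ATF4. Of the proliferation list, which is given by counts, RRM2 was named by the same measure. Not every gene so chosen is reported here. FN1, KRT18, KRT5, KRT7, KRT8, KRT19, VIM, CDH2, ZEB1, EPCAM, CDH5, CD3E, PTPRC and CD68 were taken from the marker lists after their values were seen. The enzymes and the lists were chosen with earlier results of these data known.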

Additional observations from a re-analysis of the deposited data

Results flagged for a closer look

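The change with resistance differed between the 2 lines, by the interaction term of edgeR's quasi-likelihood test on all 8 libraries (adjusted p under 0.1), for 6 enzymes. As the log2 change in NCI-H1703 minus that in NCI-H1581, the difference was -0.90 for PSAT1 (1.42 in NCI-H1581R and 0.55 in NCI-H1703R) and -1.24 for ASNS (1.64 and 0.43). It was -0.67 for PSPH (0.74 and 0.09) and -0.79 for MTHFD2 (1.11 and 0.34). It was -3.53 for ALDH1L2 (3.22 and -0.29) and -0.53 for MTHFD1L (0.36 and -0.15), and neither change of MTHFD1L was called on its own.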

How the results depend on the processing

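Of 690 refitted log2 fold changes of the enzymes, 578 kept their direction and their side of the threshold, 74 kept their direction and lost the threshold, 19 gained it and 19 changed sign. The sign changed for MTHFD1 in NCI-H1703R with RLE (-0.0024), upper-quartile normalisation (-0.028) and one fit of all 8 libraries (-0.020). All other sign changes came with 1 library left out and concerned values that were not called. They ranged from -0.22 to 0.14 for MTHFD1 in NCI-H1581R, from -0.20 to 0.28 for MTHFD1 in NCI-H1703R, from -0.17 to 0.32 for its difference between lines, from -0.0017 to 0.088 for SHMT1 in NCI-H1703R and from -0.057 to 0.033 for SHMT1 between the sensitive lines. Between the resistant lines they ranged from -0.52 to 0.38 for PHGDH, from -0.067 to 0.29 for PSAT1 and from -0.24 to 0.013 for SHMT2.

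Counts of calls moved by more than 1.5 times in these cases. In NCI-H1581R (2743 genes) 1793 genes were called at 0.05 and 4539 in one fit of all 8 libraries. In NCI-H1703R (2683 genes) 1640 were called at 0.05, 6357 with the replicate block and 1730 in one fit of all 8. With each library left out, genes called ranged from 1122 to 5186 in NCI-H1581R, from 274 to 1686 in NCI-H1703R, from 6120 to 10361 between the resistant lines and from 1571 to 4141 for the difference between lines. Enzymes called then ranged from 2 to 8, from 0 to 3, from 1 to 6 and from 2 to 7 in the same order. Enzymes called were 5 with the replicate block and 0 in one fit of all 8 in NCI-H1703R, and 2 with the replicate block between the resistant lines. Of the folate, glycine and methionine list, 3 genes were called at 0.05 in NCI-H1581R (7.89%, against 9.85% of all genes) and 13 with the replicate block in NCI-H1703R (34.2%, against 34.9%). The cause was not tested. Leaving out 1 library raised some of these counts and lowered others, each time with 1 library fewer in the fit. With the replicate block, PHGDH also passed in the difference between lines and MTHFD2 and MTHFD1L passed in NCI-H1703R, while it changed no call in NCI-H1581R or between the sensitive lines.

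With 2 libraries per variant, p-values set a difference between variants against the spread between 2 rounds of culture. That spread was estimated over both variants and partly from all genes. Each resistant variant is 1 selected population, so the spread between separate selections was not measured. A change that missed the threshold is not shown to be absent.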
